A study of Mus musculus with 8 samples.

Results

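The mRNA of 10 genes of the EGF signaling family was followed in mouse thyroid follicular cell organoids (TFCOs), thyroid tissue and lung tissue. Written in capitals as in the deposited table, they are 4 receptors, EGFR, ERBB2, ERBB3 and ERBB4, and 6 ligands, AREG, EREG, HBEGF, TGFA, BTC and NRG1. The genes were chosen by symbol, and all 10 were found among the 16119 genes of the deposited table and passed the filter on low values. The 8 libraries hold 2 of each of 4 groups: early TFCOs, late TFCOs, thyroid tissue and lung tissue, all from mice labelled as Wild type and C57BL/6. The early and late groups consist of the same 2 lines, mThy14 and mThy16, and each line was started with cells of 1 mouse thyroid, so that the passages of a line are not independent animals. TFCOs were grown in basement membrane extract with a medium that itself contained EGF at 500 ng/mL, FGF10 at 100 ng/mL, the TGF-β receptor inhibitor A83-01 at 0.5 μM, forskolin (FSK) at 1 μM and R-spondin 3 conditioned medium. Forskolin activates adenylyl cyclase, which makes cAMP. The tissues were not cultured, and the thyroid tissue is described as adult without an exact age. All values below are normalized counts, that is, read counts per gene divided by 1 size factor per library, and the depth ranged from 9755081 to 16904865 reads on genes per library.

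EGF family ligands are made as membrane-anchored precursors that metalloproteases of the ADAM family release, and they bind receptors on the same or on neighboring cells. EGFR binds AREG, TGFA and EGF itself, HBEGF, BTC and EREG bind both EGFR and ERBB4, and NRG1 binds ERBB3 and ERBB4. ERBB2 has no known ligand of its own and serves as the preferred dimerization partner of the others, whereas ERBB3 has little kinase activity and signals through its partner to PI3K. In the thyroid, EGF is known as a mitogen of follicular cells that lowers their differentiated functions.

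Summed marker levels were highest in the tissue of that label. Summed over 7 thyroid follicular cell markers, levels were 1555300 and 2222950 normalized counts in thyroid tissue, 20831 to 170539 in TFCOs and at most 2938 in lung, where PAX8 was listed at 0 in both libraries. Most of this sum in thyroid tissue was TG, at 1526000 and 2175020. TSHR went the other way, with 1882 to 8582 in TFCOs against 1287 and 1087 in thyroid tissue. Singly, 5 of the 7 lay lower and 2 higher in TFCOs than in thyroid tissue, and 0 passed the limma test. Summed over 6 lung epithelium markers, levels were 535822 and 1094010 in lung, and at most 41938 elsewhere. Not all 6 followed this sum, as FOXJ1, a gene of ciliated cells, had 6122 and 6016 in mThy16 against 1241 and 1020 in lung, and SFTPB had 28177 in early TFCOs of mThy14 against 56914 and 34374 in lung. Thyroid tissue also held parathyroid, C cell, skeletal muscle and stroma markers. Stroma markers summed to 25237 and 29602 in thyroid tissue and to at most 247 in TFCOs, where LUM was at 0 in every library, and PTH, which marks parathyroid, was at 0 in every TFCO library. The libraries form 2 sets that do not follow the groups. One set holds the 4 TFCO libraries and thyroid tissue 1, the other holds thyroid tissue 2 and both lung tissues, as 44 genes were at 0 throughout the second set and at 50 or more throughout the first, and 16 genes showed the reverse. TFCOs can therefore be compared with thyroid tissue 1 within a set, thyroid tissue 2 with lung within a set, and for TFCOs against lung, tissue and set cannot be told apart.

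ERBB2 was the most abundant receptor in TFCOs. In mThy14 it stood at 2548 normalized counts at early and 2596 at late passage, and in mThy16 at 2059 and 1757. Thyroid tissues 1 and 2 had 1168 and 920, and lung tissues 1 and 2 had 738 and 578. Every TFCO library lay above every tissue library, mThy14 lay above mThy16 at both passages, and both thyroid tissues lay above both lung tissues. ERBB3, its frequent partner, had 1770 and 2365 normalized counts in mThy14 (early, then late), 1351 and 1265 in mThy16, 1257 and 1373 in thyroid tissue, and 859 and 719 in lung. ERBB3 thus overlapped between TFCOs and thyroid tissue, and lung was lowest.

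EGFR, the receptor of the EGF in the medium, had 433 and 843 normalized counts in mThy14 (early, then late) and 569 and 675 in mThy16. The thyroid tissues had 351 and 535, and lung had 288 and 336. Late TFCOs lay above early TFCOs in both lines, TFCOs overlapped with thyroid tissue, and all 4 TFCO libraries lay above lung. ERBB4, a neuregulin receptor with a kinase of its own, ran the other way. It had 167 and 155 normalized counts in thyroid tissue, but 39.4 and 10.4 in mThy14 (early, then late), 15.8 and 20.1 in mThy16, and 8.38 and 9.44 in lung. The 2 thyroid tissues stood apart from the other 6 libraries, and the TFCO and lung values rest on 10 to 28 reads each.

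**Figure D1:**
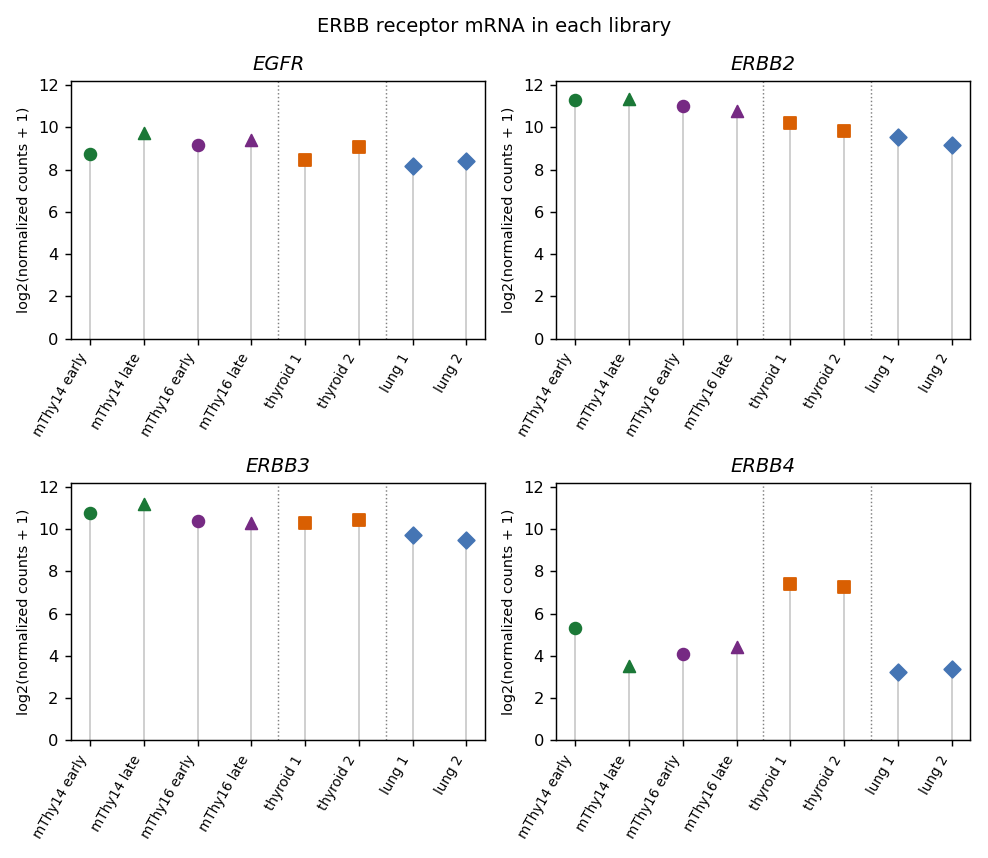
mRNA of the 4 ERBB receptors in each of the 8 libraries, as log2(normalized counts + 1) on the vertical axis. Circles are early and triangles late TFCOs (green, mThy14, purple, mThy16), squares thyroid and diamonds lung tissue. ERBB2 is highest in the 4 TFCO libraries (1757 to 2596 normalized counts), whereas ERBB4 is highest in both thyroid tissues (155 and 167).

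The order of the receptors was compared per kilobase of exon. ERBB2 ranged from 337 to 498 normalized counts per kb over the TFCO libraries, ERBB3 from 210 to 393, EGFR from 38.2 to 74.4 and ERBB4 from 0.842 to 3.19. ERBB2 was above ERBB3, ERBB3 above EGFR and EGFR above ERBB4 in each TFCO library, and also when the levels were divided by coding length. In thyroid tissue, ERBB2 and ERBB3 changed places between the libraries, at 224 and 209 per kb in thyroid tissue 1 and at 177 and 228 in thyroid tissue 2. The labels describe a CEL-Seq library, in which reads come from transcript ends, and for such reads a division by length does not apply. The same order of the 4 receptors in TFCOs was found in the undivided values above.

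The ligands varied widely between libraries. AREG, the ligand amphiregulin, had 543 and 376 normalized counts in mThy14 (early, then late) and 153 and 151 in mThy16. In thyroid tissues 1 and 2 it had 6.53 and 207, and in lung 75.4 and 52.6. AREG was thus higher in mThy14 at both passages and lowest of all in thyroid tissue 1, where 6 reads were counted, while TFCOs of mThy16 lay below thyroid tissue 2. BTC, betacellulin, had 18.3 and 32.3 normalized counts in mThy14, 0.990 and 3.35 in mThy16, 10.9 and 174 in thyroid tissues 1 and 2, with 95.5 and 58.0 for lung. It was therefore low in TFCOs, and thyroid tissue 1 lay between the lines. EREG, epiregulin, was near the detection limit throughout. It had 26.7 and 20.8 normalized counts in mThy14, 0 and 3.35 in mThy16, 1.09 and 10.1 in thyroid tissues 1 and 2, with 0.838 and 2.70 for lung. The 0 in early TFCOs of mThy16 allows a level of up to 2.97 normalized counts, which are 3 reads.

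AREG, EREG and BTC were higher in mThy14 than in mThy16 at both passages and higher in thyroid tissue 2 than in thyroid tissue 1. These genes lie in 1 cluster of EGF family ligands on mouse chromosome 5 (build GRCm38, GENCODE M21), and their promoter letters are shown for that reason. The pattern did not hold for the whole cluster. Its other member, EPGN, was at 0 in both mThy14 libraries, at 13.9 and 4.47 in mThy16 and at 0 in both thyroid tissues. TGFA, on chromosome 6, was also higher in thyroid tissue 2. EPGN lies at chr5:91027464-91035215 on the plus strand, EREG 39407 bases further at chr5:91074622-91093646 on the plus strand, AREG another 45953 bases further at chr5:91139599-91148432 on the plus strand, and BTC 208829 bases beyond at chr5:91357261-91402994 on the minus strand. RefSeq promoter entries (GRCm38.p6) were searched for 6 of the 10 genes, EGFR, ERBB2, ERBB4, AREG, BTC and TGFA. HBEGF was left out of this search, and ERBB3, EREG and NRG1 had no entry. The 250 bases before the start site of AREG (chr5:91139349-91139598, plus strand) and of BTC (chr5:91402995-91403244, minus strand) are given 5′ to 3′, and capitals mark letters of the motifs searched.
AREG: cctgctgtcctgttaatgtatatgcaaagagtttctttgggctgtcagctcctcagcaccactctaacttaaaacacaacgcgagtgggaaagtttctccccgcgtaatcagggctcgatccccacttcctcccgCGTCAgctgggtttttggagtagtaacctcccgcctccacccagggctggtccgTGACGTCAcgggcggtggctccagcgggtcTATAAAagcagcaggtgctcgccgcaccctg
BTC: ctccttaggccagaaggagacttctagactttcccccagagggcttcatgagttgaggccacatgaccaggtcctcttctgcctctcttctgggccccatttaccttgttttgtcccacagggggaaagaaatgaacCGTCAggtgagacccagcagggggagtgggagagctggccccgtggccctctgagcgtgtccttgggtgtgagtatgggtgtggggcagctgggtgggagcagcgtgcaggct
The motifs searched on both strands were the cAMP response element TGACGTCA, its core of 5 bases TGACG, the AP-1 motif TGANTCA and the TATA motif TATAAA. The AREG window held TGACGTCA, which starts 61 bases before the start site, TATAAA starting 31 bases before it, and the core apart from the full element starting 115 bases before it, read on the minus strand. The full element contains the core on both strands, so that these matches overlap. Of 32851 mouse promoter windows of the same length, 1.55% held TGACGTCA, 12.4% TATAAA, 17.8% the core and 6.75% TGANTCA. Of the other windows, those of BTC and ERBB2 held 1 core each, and TGANTCA was found in none of the 6. A match is a description of the letters and not of binding.

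NRG1, neuregulin 1, separated the lines most clearly in the opposite direction. It had 177 and 153 normalized counts in mThy14 (early, then late) and 815 and 914 in mThy16. Thyroid tissues 1 and 2 had 71.8 and 7.38, and both lung tissues 39.4 and 39.8. Every TFCO library lay above every tissue library, and mThy16 was highest. HBEGF, heparin-binding EGF, had 402 and 123 normalized counts in mThy14 (early, then late), 601 and 642 in mThy16, 126 and 217 in thyroid tissue, and lung had 868 and 551. HBEGF was therefore highest in lung tissue 1 and lowest in late TFCOs of mThy14. TGFA, TGF-α, had 67.5 and 126 normalized counts in mThy14, 135 and 108 in mThy16, 119 and 639 in thyroid tissues 1 and 2, with 365 and 285 for lung. Thyroid tissue 1 was in the range of the TFCOs, and thyroid tissue 2 was above every other library. Summed over the 6 ligands, levels ranged from 831 to 1822 in TFCOs, lay at 335 and 1255 for thyroid tissues 1 and 2, and at 1444 and 990 for lung.

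**Figure D2:**
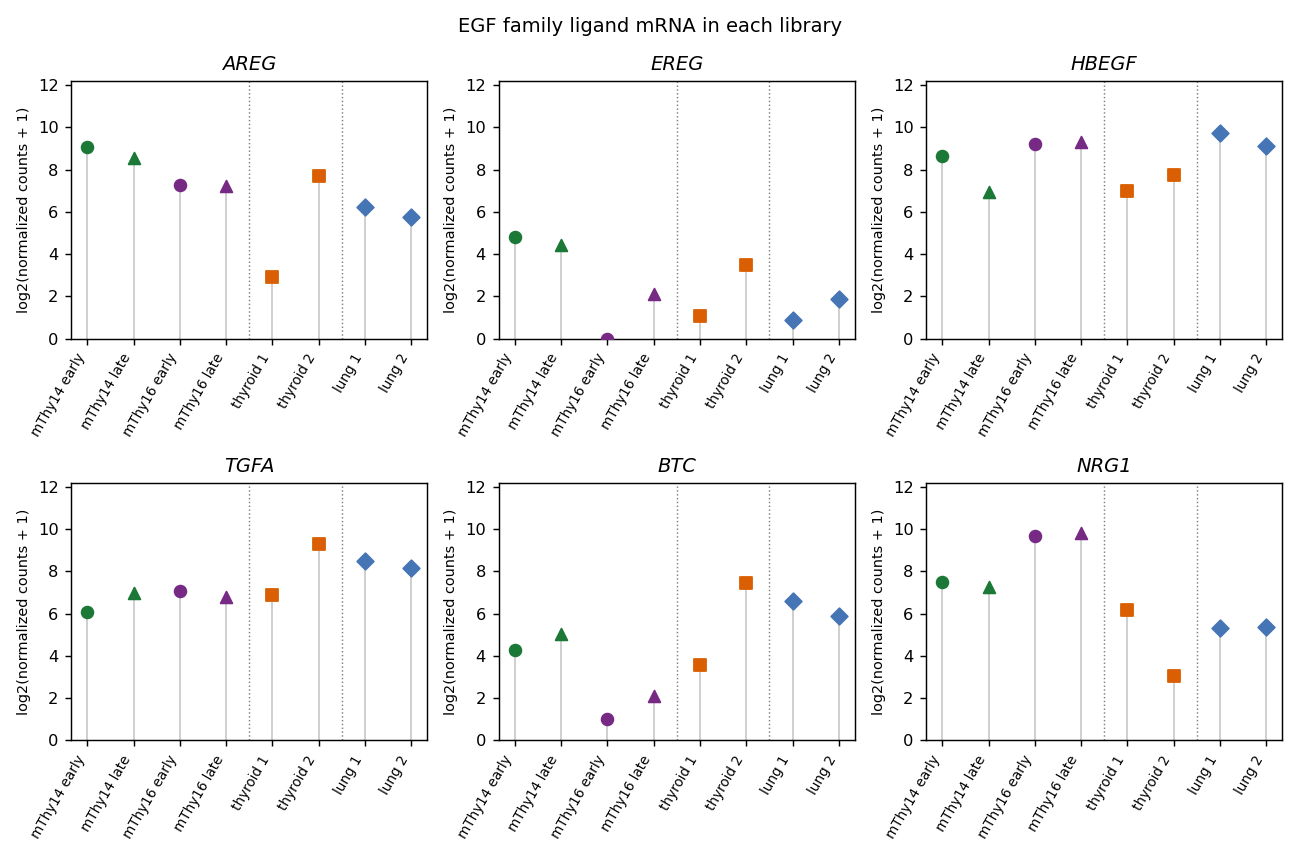
mRNA of the 6 EGF family ligands in each of the 8 libraries, as log2(normalized counts + 1) on the vertical axis, with symbols and colors by line, passage and tissue. AREG, EREG and BTC are higher in mThy14 and NRG1 in mThy16 (815 and 914 against 177 and 153 normalized counts), and AREG differs between thyroid tissues 1 and 2 (6.53 and 207).

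AREG was the highest ligand in both mThy14 libraries, undivided (543 and 376 normalized counts), per kilobase of exon (446 and 309) and per coding kb (729 and 505). In mThy16 the order depended on the scale. Undivided, NRG1 was highest there at 815 and 914 normalized counts, followed by HBEGF at 601 and 642, while AREG was at 153 and 151. Per kilobase of exon, AREG at 126 and 124 and HBEGF at 124 and 133 were close, and NRG1 was at 78.7 and 88.3. Per coding kb, HBEGF led with 963 and 1028, followed by NRG1 at 388 and 435, TGFA at 282 and 227 and AREG at 206 and 203. No order of the ligands in mThy16 is therefore given.

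NRG1, HBEGF, AREG, BTC and EREG differed between the lines in the same direction at both passages, whereas TGFA did not. Among all tested genes, 31.5% were higher in mThy16 at both passages and 35.1% were higher in mThy14. NRG1 was 4.60-fold higher in mThy16 than in mThy14 at early and 5.98-fold higher at late passage, and HBEGF was 1.50-fold and 5.22-fold higher. AREG was 3.53-fold and 2.49-fold higher in mThy14. BTC was 18.5-fold higher in mThy14 at early passage (95% counting interval 2.77 to 784) and 9.62-fold at late passage (3.00 to 49.2), ratios that rest on 1 and 3 reads in mThy16. EREG had 19 reads in mThy14 and 0 in mThy16 at early passage, with a counting interval from 6.62-fold upward. At late passage it was 6.21-fold higher in mThy14 (1.84 to 32.6). Intervals are exact and cover counting error only. TGFA was 2.00-fold higher in mThy16 at early and 1.16-fold higher in mThy14 at late passage. ERBB2 was 1.24-fold and 1.48-fold higher in mThy14, and ERBB3 1.31-fold and 1.87-fold. In all, 7 of the 10 genes had no overlap between the 2 libraries of mThy14 and the 2 of mThy16, 5 higher and 2 lower in mThy14, against 29.1% and 26.4% of the 14703 tested genes. Differences of 4-fold or more on the log2(value + 1) scale, between line means, were found for 3 of 10 genes, BTC, EREG and NRG1, against 8.32% of tested genes. With 1 animal per line no test of the lines was made.

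Marker levels also differed between the lines. Thyroid follicular cell markers were higher in mThy14 for 7 of 7 genes at both passages, and their sum in mThy16 was 0.150 of that in mThy14 at early and 0.205 at late passage. Basal and squamous epithelium markers summed to 1153 and 1601 normalized counts in mThy14 and to 4824 and 4713 in mThy16, and 3 of the 4 genes measured, KRT5, KRT14 and KRT6A, were higher in mThy16 at both passages whereas IVL was lower. FOXJ1 had 35.1 and 442 in mThy14 against the 6122 and 6016 in mThy16. The part of these markers in the ligand levels was not tested.

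**Figure D3:**
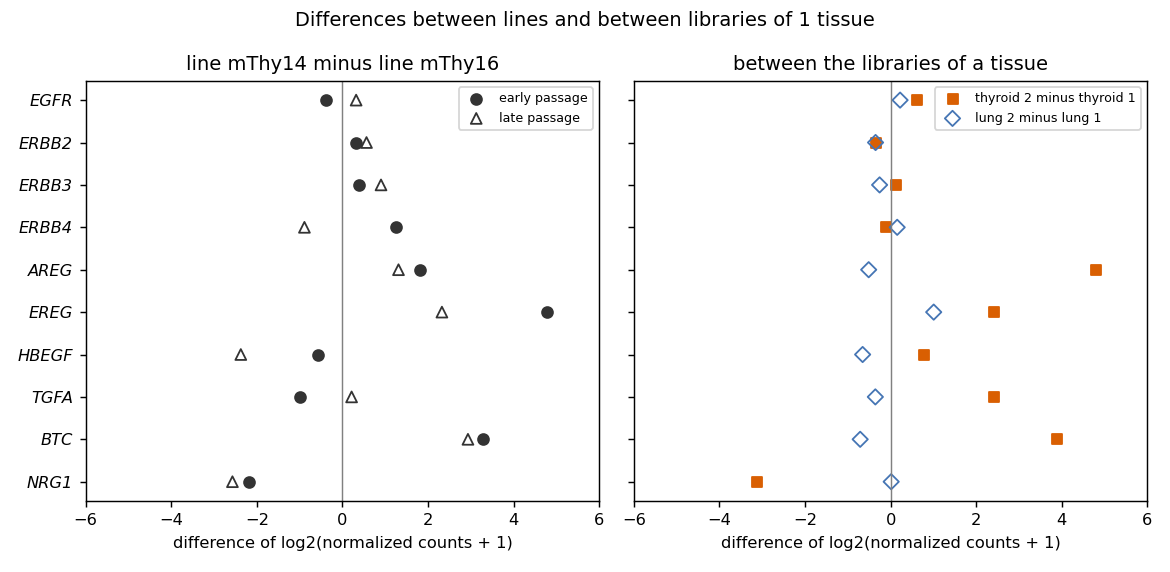
Differences of log2(normalized counts + 1) for the 10 genes, between lines mThy14 and mThy16 at early and late passage (left) and between the 2 libraries of thyroid and of lung tissue (right). BTC lies to the right and NRG1 to the left for the lines, AREG, BTC, EREG and TGFA are higher and NRG1 lower in thyroid tissue 2 than in thyroid tissue 1, and the receptors lie near 0 for both tissues.

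The 2 thyroid tissues, which belong to different library sets, had similar receptors but different ligands, apart from HBEGF. Between thyroid tissue 2 and 1, the receptors differed by −0.34 (ERBB2), −0.10 (ERBB4), 0.13 (ERBB3) and 0.61 (EGFR) on the log2 scale. AREG was 31.8-fold higher in thyroid tissue 2 (95% counting interval 14.4 to 87.5), EREG 9.32-fold (1.35 to 401, with 1 read in thyroid tissue 1) and TGFA 5.38-fold, and BTC was 3.88 higher on the log2 scale. NRG1 was 9.74-fold higher in thyroid tissue 1 (4.67 to 23.5). HBEGF differed less and was 1.72-fold higher in thyroid tissue 2. Thus 5 of the 10 genes, all of them ligands, differed by 4-fold or more on the log2(value + 1) scale between the thyroid tissues, against 21.8% of tested genes. Between the 2 lung tissues, which share a set, 0 of 10 did, against 2.33% of tested genes. Skeletal muscle markers summed to 44309 and 106794 normalized counts in thyroid tissues 1 and 2, adipocyte markers to 1068 and 5448, and basal and squamous epithelium markers to 1275 and 32. The part of library set and of these markers in the ligand values was not tested.

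Late TFCOs were compared with early TFCOs to ask whether the family stays at its level in culture. None of the 10 genes passed the test (limma, Benjamini-Hochberg adjusted p = 1.0 for each), and 0 had an unadjusted p under 0.05, with limma's voom on reads as well. Of all 14703 genes tested, 0.0% were called, and 166 (1.13%) had an unadjusted p under 0.05. Log2 fold changes of late against early were largest for BTC at 0.96 ± 1.67 (SE, n = 2 lines at each passage), EREG at 0.89 ± 1.72, HBEGF at −0.80 ± 0.74, ERBB4 at −0.75 ± 0.88 and EGFR at 0.60 ± 0.38. The other 5 genes lay between −0.28 (AREG) and 0.29 (TGFA). The SE above leave out the pairing by line. With line as a replicate block, in a fit of the 4 TFCO libraries alone, SE were 0.73 for BTC, 0.93 for EREG, 0.49 for HBEGF, 0.87 for ERBB4 and 0.27 for EGFR. For NRG1 the SE went from 1.25 to 0.26 and for AREG from 1.41 to 0.31. Both the block and the samples of this fit differ from those above, and their parts in the SE were not told apart. In that fit 0 of 10 genes passed as well (limma adjusted p between 0.896 and 0.994). EGFR was the only 1 of the 10 genes whose late libraries all lay above the early ones, against 11.0% of tested genes, and it was 1.95-fold higher in late TFCOs of mThy14 and 1.19-fold higher in mThy16. With 2 libraries per group an exact permutation test cannot give a two-sided p below 0.333, so none is given for single genes.

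TFCOs were then compared with thyroid tissue, taking the mean of both passages for each line. In bulk RNA, fewer cells of a type and less RNA per cell cannot be told apart, here and in the comparisons that follow. None of the 10 genes passed the test (limma, adjusted p between 0.0973 and 0.843), against 3.65% of tested genes, although 3 of 10 had an unadjusted p under 0.05, against 18.6% of tested genes. Counts with voom were also 0 and 3. These 3 genes were also the ones without overlap between the 4 TFCO and the 2 thyroid libraries, ERBB2 and NRG1 above (17.2% of tested genes) and ERBB4 below (17.3%). ERBB4 was lower in TFCOs by a log2 fold change of −3.01 ± 0.78 (SE, n = 2 lines and 2 tissues, limma adjusted p = 0.0973), with −3.06 against thyroid tissue 1 and −2.95 against thyroid tissue 2. ERBB2 stood at 2240 ± 403 normalized counts in TFCOs (SD, n = 4 libraries of 2 lines) and 1044 ± 175 in thyroid tissue (SD, n = 2). Its log2 fold change was 1.09 ± 0.35 (limma adjusted p = 0.162), with 0.92 and 1.26 against the single tissues. NRG1 had a log2 fold change of 3.94 ± 1.22 (limma adjusted p = 0.150), with 2.38 against thyroid tissue 1 and 5.50 against thyroid tissue 2.

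The other ligands depended on which thyroid tissue was taken. AREG was 5.13 higher in TFCOs on the log2 scale against thyroid tissue 1, which shares their set, and 0.34 higher against thyroid tissue 2. BTC was −0.46 and −4.34, TGFA −0.17 and −2.59, and EREG 1.78 and −0.64 against the same tissues. HBEGF was higher in TFCOs against either tissue, by 1.55 and 0.78, with a joint log2 fold change of 1.16 ± 0.60 (limma adjusted p = 0.342). Without thyroid tissue 1, limma called ERBB4 (adjusted p = 0.0298), NRG1 (0.0228) and TGFA (0.0166). Taking the 4 TFCO libraries as separate samples, which counts the passages of a line as independent, gave adjusted p = 0.0404 for ERBB2, 0.0346 for ERBB4 and 0.0439 for NRG1. EGFR and ERBB3 differed from thyroid tissue by 0.50 ± 0.39 and 0.32 ± 0.36 on the log2 scale.

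Summed markers of several other cell types were lower along with ERBB4, though not each gene of them. Basal and squamous epithelium markers were not lower, as 4 of 4 had a log2 fold change above 0 in TFCOs, and 0 passed. Of the listed markers, 2 of 3 for C cells, 2 of 3 for parathyroid, 4 of 6 for skeletal muscle, 1 of 5 for Schwann cells, 6 of 6 for stroma, 4 of 5 for endothelium, 2 of 5 for leukocytes and 0 of 3 for adipocytes fell in TFCOs against thyroid tissue (limma), against 3.05% of tested genes. C cell markers summed to 41181 and 66422 normalized counts in thyroid tissue and 22 to 98 in TFCOs, parathyroid markers to 9811 and 25996 and 8 to 27, skeletal muscle markers to 44309 and 106794 and 1990 to 2576, and Schwann cell markers to 1466 and 2368 and 425 to 573. In TFCOs most of the muscle sum was ACTA1, at 1796 to 2442. Of the Schwann cell markers, SOX10 overlapped, with 159 to 375 in TFCOs and 183 and 24.0 in thyroid tissue. Endothelium markers summed to 2613 to 6668 in thyroid tissue and 186 to 529 in TFCOs, leukocyte markers to 704 to 1125 and 39 to 67, and adipocyte markers to 1068 to 5448 and 17 to 49. The part of these cell types and of stroma in the ERBB4 level was not tested.

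Against lung, the study's unrelated tissue, all 4 receptors lay higher in every TFCO library. ERBB2 had a log2 fold change of 1.76 ± 0.35 (SE, n = 2 lines and 2 tissues, limma adjusted p = 0.0182) and was the only 1 of the 10 genes that passed the test, against 9.83% of tested genes that were called higher. Without lung tissue 1 or lung tissue 2 the adjusted p for ERBB2 was 0.118 or 0.158, and with library set as a term the log2 fold change was 1.41 (adjusted p = 0.241). Log2 fold changes were 1.06 ± 0.36 for ERBB3 (limma adjusted p = 0.0685), 0.97 ± 0.39 for EGFR (0.0959) and 1.02 ± 0.78 for ERBB4 (0.337). NRG1 was at 3.22 ± 1.22 (0.0868), AREG at 2.04 ± 1.47 (0.309) and EREG at 1.46 ± 1.49 (0.470), whereas BTC was at −3.13 ± 1.55 (0.158), TGFA at −1.60 ± 0.79 (0.156) and HBEGF at −0.89 ± 0.60 (0.277). Libraries did not overlap for 8 of 10 genes, of which 6 were higher in TFCOs (34.4% of tested genes) and 2 lower (33.3%). Without thyroid tissue 1, which entered only through the shared spread, limma called EGFR, ERBB3, AREG, TGFA and NRG1 as well (adjusted p = 0.0361, 0.0447, 0.0494, 0.0189 and 0.0338). Without thyroid tissue 2, EGFR (0.0383), ERBB3 (0.0454), TGFA (0.0236) and NRG1 (0.0309) passed. With library set as a term, BTC and TGFA turned to 0.75 and 0.82, NRG1 was at 0.10, AREG at 6.83 and EREG at 3.87. This term is estimated only from the difference between thyroid tissues 2 and 1, so it cannot tell set from tissue here.

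Thyroid tissue differed from lung in ERBB4. Its log2 fold change was 4.03 ± 0.78 (SE, n = 2 tissues each, limma adjusted p = 0.0318), and it was 3.98 between thyroid tissue 2 and lung, within their set. ERBB4 was the only 1 of the 10 genes that passed, against 2.89% of tested genes that were called higher. Without lung tissue 1 or lung tissue 2 its adjusted p was 0.274 or 0.264, at log2 fold changes of 3.95 and 4.11. HBEGF was lower in thyroid tissue by a log2 fold change of −2.06 ± 0.60 (limma adjusted p = 0.0952), and by −1.67 within the set. Without overlap were 5 of 10 genes, the 4 receptors above (26.2% of tested genes) and HBEGF below (27.5%). AREG, at −0.69 ± 1.47 (limma adjusted p = 0.794), was at 1.70 within the set, and without thyroid tissue 2 it was at −3.09 (adjusted p = 0.0475). This comparison and those of TFCOs with each tissue share their tissue libraries.

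**Figure D4:**
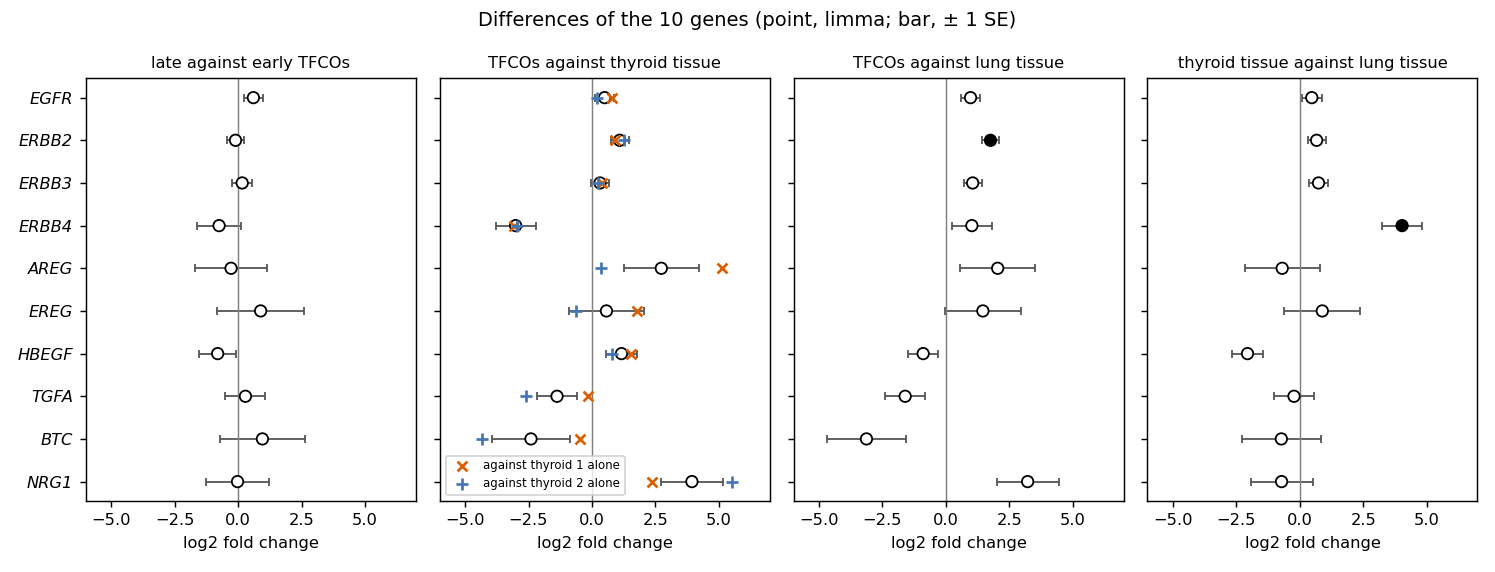
Log2 fold changes of the 10 genes in the 4 comparisons (points, limma, bars, ± 1 SE, filled where the adjusted p is under 0.05). Crosses and plus signs give TFCOs against thyroid tissue 1 and 2 alone, which nearly coincide for the receptors and lie apart for AREG (5.13 and 0.34), BTC, TGFA and NRG1, and the filled points are ERBB2 against lung (1.76) and ERBB4 in thyroid against lung (4.03).

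Of 5 other EGF family ligands, all were weakly expressed, with sums of 83 to 131 normalized counts in TFCOs, 109 and 163 in thyroid tissue and 251 and 86 in lung. Of these, 3 entered the test and 0 passed in any of the 4 comparisons. Without thyroid tissue 1, NRG2 rose in TFCOs against thyroid tissue and fell in thyroid tissue against lung, and it also fell in the latter with library set as a term. Those with the highest mean level were NRG2, EGF and NRG4. NRG2 had 51.0 to 90.5 in TFCOs, 17.4 and 1.84 in thyroid tissues 1 and 2, with 84.6 and 53.3 for lung. EGF itself ranged from 21.2 to 50.6 in TFCOs, which receive EGF from the medium, and from 9.44 to 89.4 in the tissues. EPGN, the member of the chromosome 5 cluster next to EREG in that order, was at 0 in both mThy14 libraries and at 13.9 and 4.47 in mThy16.

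The proteases that release the ligands were present in every library. The 10 sheddases and cofactors summed to 12894 to 13868 normalized counts in TFCOs, 6640 and 7678 in thyroid tissue and 10396 and 11510 in lung. ADAM17, the main protease for AREG, TGFA and HBEGF, had 947 and 1548 in mThy14 (early, then late), 1630 and 1607 in mThy16, 724 and 683 in thyroid tissue and 997 and 1297 in lung. ADAM10, which releases BTC, ranged from 3300 to 5841 in TFCOs and from 1461 to 2388 in the tissues. Of the 10 genes, 0 passed between TFCOs and thyroid tissue, where the median log2 fold change was 0.84 against 0.05 for all tested genes. Without thyroid tissue 1, 3 rose (ADAM10, RHBDF1 and RHBDF2) and 2 fell (ADAM19 and FRMD8). Against lung, RHBDF1 rose by 1.68 on the log2 scale, and ADAM19 and ADAM8 were at −5.31 and −3.36 (limma adjusted p = 0.0483, 0.00624 and 0.0285). Calls among all tested genes were 9.83% higher and 13.5% lower there. ADAM19 and ADAM9 were lower in thyroid tissue than in lung, at −3.39 and −1.50 (0.0472 and 0.0458). ADAM17 and ADAM10 are named outside the rule for pathway genes, after their values were seen.

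Of 16 adaptors and genes of the RAS-ERK cascade, 0 passed between TFCOs and thyroid tissue, and 3 fell against lung, where 13.5% of tested genes were called lower. They were GAB2, GAB1 and PTPN11, with log2 fold changes of −2.32, −2.05 and −1.72 (limma adjusted p = 0.0451, 0.0232 and 0.0434). Of 9 genes of the PI3K-AKT arm, 0 passed against either tissue, whereas without thyroid tissue 1 PIK3CB rose and PDPK1 and PIK3R2 fell against thyroid tissue, and AKT2 rose and PIK3R2 fell against lung. PIK3R2 followed the library sets, with 0 to 2.81 normalized counts in TFCOs and 1.09 in thyroid tissue 1, against 748 in thyroid tissue 2 and 576 and 476 in lung. The genes of the PI3K-AKT arm given here, like FOXJ1, SFTPB, TG, TSHR, SOX10 and ACTA1 among the markers, were named after their values were seen. With all libraries in the fit, 0 passed in both lists between late and early TFCOs and 0 between thyroid tissue and lung. The latter result changed in both lists when thyroid tissue 2 was left out. Median log2 fold changes of TFCOs against thyroid tissue were 0.01 and −0.26 for these lists.

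Genes induced by ERK signaling had a higher summed level in each TFCO library than in either thyroid tissue, while few of them passed singly. The 11 ERK output genes summed to 3797 and 3850 normalized counts in thyroid tissue and to 10600 to 21589 in TFCOs, and to 10811 and 9489 in lung. Of the 11, 2 rose against thyroid tissue and 0 fell, where 3.65% of tested genes were called in either direction. The median log2 fold change was 1.70 against 0.05 for all tested genes. ETV5, a transcription factor induced by FGF and ERK signaling, had 4649 and 3111 in mThy14, 4176 and 3451 in mThy16, and 830 and 587 in thyroid tissue. Its log2 fold change was 2.44 ± 0.37 (limma adjusted p = 0.0189), and 2.19 against thyroid tissue 1 within the set. MYC, a driver of growth, rose by 2.52 ± 0.52 (limma adjusted p = 0.0494), and was at 1.89 within the set. Without thyroid tissue 2, or without either lung tissue, 0 of the 11 passed against thyroid tissue, as with library set as a term, where the median was 1.63. Without thyroid tissue 1, 4 rose, and voom called ETV5 alone. Against lung, ETV4, MYC and PHLDA1 rose by 6.02, 4.06 and 1.64 on the log2 scale and PLAUR fell by 4.74 (limma adjusted p = 0.0167, 0.00434, 0.0239 and 0.0119). In that comparison 9.83% of tested genes were called higher and 13.5% lower. ETV5, EPHA2 and PLAUR were lower in thyroid tissue than in lung, at log2 fold changes of −1.67, −2.18 and −4.86 (limma adjusted p = 0.0485, 0.0496 and 0.0216).

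Between the TFCO lines, the sum of this list was 10600 and 10619 normalized counts in mThy14 (early, then late) and 21515 and 21589 in mThy16. Most of this difference was CCND1, and without it the sums were 9227 and 8559 in mThy14 and 10744 and 9571 in mThy16, or 1.16-fold and 1.12-fold higher in mThy16. Of the 11 genes, 6 were higher in mThy16 at both passages, against 31.5% of tested genes, and 2 in mThy14, ETV1 and PHLDA1, against 35.1%. The genes named next were chosen after their values were seen. CCND1, cyclin D1, had 1373 and 2060 in mThy14 and 10771 and 12018 in mThy16. IER3 was 7.13-fold and 10.2-fold higher in mThy16 at early and late passage. CCND1 and IER3 were higher in the line with the higher NRG1 and HBEGF and the lower AREG, BTC and EREG, which is a description of 2 lines.

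Of the feedback inhibitors, 1 passed against thyroid tissue, where 3.65% of tested genes were called. The 17 receptor downregulators and feedback inhibitors summed to 14128 to 17009 normalized counts in TFCOs and 9080 and 11066 in thyroid tissue. SPRY4, a Sprouty inhibitor of RAS activation, was the only one that passed against thyroid tissue, with 42.2 and 7.29 in mThy14, 18.8 and 25.7 in mThy16, 132 and 251 in thyroid tissue and 272 and 492 in lung. It fell by 3.13 ± 0.65 on the log2 scale (limma adjusted p = 0.0496), and was at −2.67 within the set. SPRY4 did not pass without thyroid tissue 2 or either lung tissue, nor with voom or library set as a term. Against lung, 2 of 17 rose and 3 fell, against 9.83% and 13.5% of tested genes. SPRY4, CBLB and SPRY1 were at −4.14, −2.10 and −1.35, and RNF41, a ubiquitin ligase for ERBB3, was at 1.36 (limma adjusted p = 0.00860, 0.0165, 0.0392 and 0.0487). ERRFI1, an inhibitor that binds EGFR and ERBB2 and was named after its values were seen, ranged from 3207 to 6006 in TFCOs and was at 858 and 2238 in thyroid tissue.

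**Figure D5:**
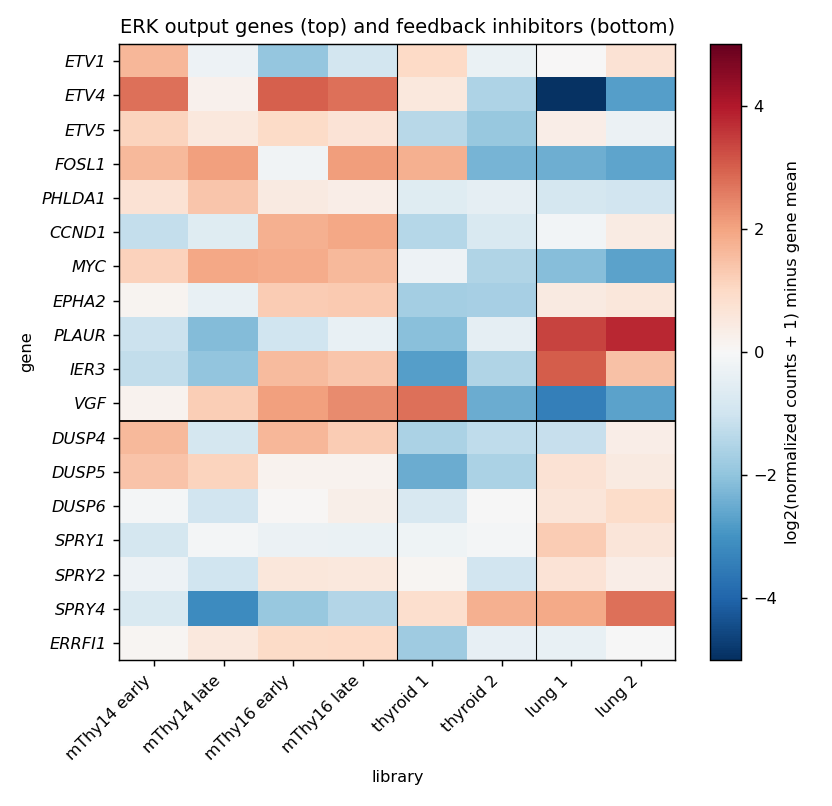
The 11 ERK output genes (above the line) and 7 of the 17 receptor downregulators and feedback inhibitors (below) in each library, as log2(normalized counts + 1) minus the mean of the gene over the 8 libraries (color). CCND1 and IER3 are redder in the mThy16 columns, ETV5 and MYC are bluer in both thyroid tissues than in TFCOs, and SPRY4 is bluer in all 4 TFCO columns than in the tissues.

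Calls against lung in these lists depended on the lung libraries and on library set. With library set as a term, 0 genes of the lists passed between TFCOs and lung, and with either lung tissue left out those that passed were at most MYC and LGR4. Between thyroid tissue and lung, 0 genes of the lists passed with either lung tissue left out.

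Receptors for the other factors of the medium were compared in the same way. Of 8 genes, 0 passed between TFCOs and thyroid tissue. Against lung, LGR4, a receptor of R-spondins, rose by 4.02 ± 0.42 and FGFR3 fell by 2.47 ± 0.45 (limma adjusted p = 0.00209 and 0.0143), and in thyroid tissue against lung LGR4 was at 4.23 and FGFR3 at −4.02 (0.00452 and 0.00692). FGFR2, the main receptor of FGF10, ranged from 2087 to 3702 in TFCOs and was at 5439 and 3338 in thyroid tissue. LGR5 was at 0 and 1.04 in mThy14 and at 263 and 199 in mThy16. TGFBR2, the type II receptor of TGF-β, was 7.53-fold and 6.39-fold higher in mThy16. FGFR2, LGR5 and TGFBR2 were named after their values were seen.

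As a description, the 3 genes with the pattern most like each member were sought over the 8 libraries by Pearson's r of log2(normalized counts + 1), for the 9 members at 50 or more in at least 1 library. The 27 values of r lay between 0.951 and 0.994, over libraries that share lines, tissues and sets. For ERBB2 they were NUDT2, UBTD1 and MXD3, and for ERBB3 BSPRY, MBIP and SLC41A1. For ERBB4 they were PRSS55, PNOC and SDF2L1, of which PNOC had 932 and 495 normalized counts in thyroid tissue and at most 8.43 elsewhere. For AREG they were C2CD4B, PCTP and LAMP2, for TGFA JPT2, SFT2D2 and LY6G6E, for BTC MRPL9, ORAI3 and ACOT13, and for NRG1 CFL1, TRAF7 and NFIB. EGFR was most like ERLIN2, ZIK1 and AFF4, and HBEGF most like ULK4, ATRNL1 and CCL8.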

How the data were processed

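RNA of 8 mouse libraries, 2 for each of 4 groups, was measured, with groups and line or tissue numbers taken from the sample titles. The authors deposited 1 table of normalized counts, a signal in which reads per gene are divided by a size factor per library (DESeq2, per the study's methods). Labels describe an adapted CEL-Seq library and the methods a stranded polyA kit. The submitters' processing notes name BWA 0.6.2-r126 and the builds hg38 and mm10, and which libraries each build served is not given in the sources used here. For 100% of the values above 0 a whole number of reads was recovered (tolerance 0.01 reads). The log2 of each normalized count, after adding 1, was tested by limma 3.58.1 (R 4.3.3, mean-variance trend, Benjamini-Hochberg). Of 16119 genes, the 14703 that reached 10 in 2 or more libraries were tested, and genes with an adjusted p under 0.05 were called. Adding 1 understates fold changes where levels are low. Passages were compared in 1 fit of 8 libraries. For comparisons with tissues, both passages of each line were first averaged. The fits were tested on simulated counts with the same spread for all genes and no effect of line or library set. That test therefore does not cover the differences between lines and sets found here. Count model tests that had been planned were left out. A check of units did not accept recovered reads for 1 library, early TFCOs of mThy16, where 1 read made 0.990 normalized counts. Added after seeing the data were limma's voom, run on the recovered reads, and library set as a term. The set term is estimated only from the difference between the 2 thyroid tissues. It is therefore not a check separate from leaving out a thyroid tissue. Other alternatives were the pseudocount, the filter, the scaling, the trend, the samples in the fit, a replicate block and leaving out each library. Early and late libraries are paired by line, since a line comes from 1 animal (correlation of deviations 0.477 across genes), and tissue numbers pair nothing in the labels. The members, lists and naming rule were chosen with earlier results of these data known. All 10 members were named, and pathway lists were given by their counts, with up to 4 called genes of largest change, or up to 3 of highest mean where none was called. A few genes of the pathway lists are not reported here and stay out of the lists' counts. Symbols of 15883 genes matched GENCODE M21. Nothing says that tissue replicates came from separate animals beyond the label of biological replicates.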

Additional observations from a re-analysis of the deposited data

Results flagged for a closer look

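For 7 of the 10 genes, late TFCOs differed from early TFCOs in opposite directions in lines mThy14 and mThy16. This was also found for 46.6% of all tested genes. The difference between the lines was not tested, since each line has 1 library per passage. On the log2(value + 1) scale, late minus early was −1.82 in mThy14 and 0.33 in mThy16 for ERBB4, −1.70 and 0.09 for HBEGF, 0.89 and −0.31 for TGFA, −0.34 and 2.12 for EREG, 0.42 and −0.09 for ERBB3, −0.21 and 0.17 for NRG1, and 0.03 and −0.23 for ERBB2. The change in mThy14 was the larger one for ERBB4, HBEGF, TGFA, ERBB3 and NRG1, and the change in mThy16 for EREG and ERBB2. The ERBB4 values rest on 28 and 10 reads in mThy14 and on 16 and 18 reads in mThy16, and the EREG value in mThy16 on 0 and 3 reads. EGFR, AREG and BTC moved in the same direction in both lines.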

How the results depend on the processing

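With 2 libraries per group, the number of called genes depended on the samples in the fit. TFCOs against thyroid tissue called 536 genes, but 124 with only the groups compared, 1322 with the 4 TFCO libraries as separate samples, 220 with voom and 178 with library set as a term, and 153 to 4085 when a library was left out. TFCOs against lung called 3435, but 6979, 6625 and, with library set as a term, 174, and 248 to 6986 on leaving out a library. Thyroid tissue against lung called 889, but 277 with only the groups compared, and 58 to 4311 on leaving out a library. Late against early TFCOs called 0 genes, and 0 to 2 on leaving out a library. In the last comparison the replicate block by line, fitted on TFCO libraries alone, also called 0 genes, with 382 at an unadjusted p under 0.05. It changed the call of none of the 10 members. Thyroid and lung tissues share only a number (correlation of deviations −0.0726), and the replicate block there gave 167 genes and an adjusted p of 0.133 for ERBB4, as against 0.0318 without it (0.0677 with only those groups in the fit). Quantile normalization moved the median log2 fold change of all genes from 0.05 to 0.32 for TFCOs against lung, where EGFR and NRG1 then passed (adjusted p = 0.04996 and 0.0461, limma), and turned EREG to −0.19 and TGFA to 0.088 in thyroid tissue against lung. Library set as a term turned TGFA to 0.82 and BTC to 0.75 for TFCOs against lung, and AREG to 1.70, TGFA to 0.98 and BTC to 1.22 for thyroid tissue against lung. Where a group was left with 1 library, that library was assumed to vary like the other groups. Leaving out a library turned 20 member values, none of them past the threshold. For late against early TFCOs, log2 fold changes ranged from −0.38 to 0.18 for ERBB2, −0.29 to 0.61 for ERBB3, −1.18 to 0.63 for AREG, −1.51 to 3.28 for EREG, −1.99 to 0.38 for HBEGF, −0.20 to 0.78 for TGFA, −0.68 to 2.60 for BTC and −1.31 to 1.26 for NRG1. For TFCOs against thyroid tissue, log2 fold changes ranged from −0.64 to 1.78 for EREG. For thyroid tissue against lung tissue, log2 fold changes ranged from −3.09 to 1.70 for AREG, −0.32 to 2.10 for EREG, −1.44 to 0.98 for TGFA, −2.67 to 1.22 for BTC and −2.28 to 0.84 for NRG1. The cause of these changes was not tested.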
